A study of Mus musculus with 4 samples.

Results

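The Schlafen family was followed through the RNA of effector CD4 cells in EAE, a mouse model of MS. Its 7 genes *Slfn1*, *Slfn2*, *Slfn3*, *Slfn4*, *Slfn5*, *Slfn8* and *Slfn9* were chosen by name, out of 23990 gene symbols in the deposited tables. Earlier results of these data were known when these genes, and the gene lists used below, were chosen. CD44+ CD4 cells of wild type C57BL/6 mice, all immunized with a MOG peptide in adjuvant and given pertussis toxin, were sorted when disease began, giving 2 spinal cord libraries (labelled CNS) and 2 libraries of draining lymph nodes pooled together (dLN). The study's methods describe PMA and ionomycin stimulation of the sorted cells, whereas the labels call the cells freshly sorted and name no stimulation, and neither gives the age or sex of the mice. Values are FPKM, the fragments of a transcript scaled to its length and to the mapped fragments of the library, so levels may be compared between genes.

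Schlafen proteins share a core domain found in this family, and the long members (Slfn5, Slfn8 and Slfn9) carry a helicase-like part as well, which the short Slfn1 and Slfn2 and the intermediate Slfn3 and Slfn4 lack. The first members were described in developing T cells, where they were tied to the resting state, and loss of Slfn2 leaves T cells unable to stay quiescent. Type I interferon induces many members in mouse immune cells. Slfn2 binds transfer RNA and shields it from cleavage, and Slfn4 is best known from myeloid cells.

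All 7 genes lie in one cluster on chromosome 11 of build mm10, within 263.1 kb from 82952102 to 83215154. Their promoters were compared by searched motifs and by a word sought because at least 4 members shared it. Along the cluster *Slfn5*, *Slfn9* and *Slfn8*, which held a motif given below, came first. *Slfn2*, *Slfn1*, *Slfn4* and *Slfn3*, which held the shared word, followed. RefSeq windows (build GRCm38.p6) of 300 bases, 250 before the start site of each gene and 50 from it on, were searched for 4 motifs on both strands. The core of the ISRE, the element bound by interferon-activated factors, was searched as GAAANNGAA, which reads TTCNNTTTC on the opposite strand. It was in the windows of *Slfn5*, *Slfn8* and *Slfn9*, all long members, and in 8.56% of 32851 windows of all genes. The window of *Slfn14*, a further family gene with hardly any RNA in these cells, held it too, 197 bases before the start site. In the stretches below, each on the strand of its gene, capitals mark the ISRE core.

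Slfn5 (chr11:82951922-82952003, plus strand): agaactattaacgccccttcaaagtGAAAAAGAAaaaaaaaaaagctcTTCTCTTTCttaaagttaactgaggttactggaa
Slfn8 (chr11:83020824-83020882, minus strand): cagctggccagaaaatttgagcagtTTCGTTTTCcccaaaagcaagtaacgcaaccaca
Slfn9 (chr11:82991841-82991899, minus strand): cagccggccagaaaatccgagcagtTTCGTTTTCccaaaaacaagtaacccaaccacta

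The match began 47 bases before the start site in *Slfn8* and 44 bases before it in *Slfn9*, with the same 9 letters. No ISRE core was found in the windows of *Slfn1*, *Slfn2*, *Slfn3* and *Slfn4*. These windows held another word of 9 letters in common, ACTTCCTGG, which occurred in 0.843% of all windows on either strand. It was picked out after the sequences were seen, as a word shared by at least 4 members, so its being shared follows from the choice. It began 74 bases before the start site in *Slfn1*, 55 in *Slfn2*, 42 in *Slfn3* and 73 in *Slfn4*, and capitals mark it here. Start sites are those of RefSeq, which for *Slfn1* lies 25 bases upstream of the start in the deposited tables.

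Slfn1 (chr11:83116721-83116779, plus strand): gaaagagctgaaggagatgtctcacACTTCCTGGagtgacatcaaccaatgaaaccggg
Slfn2 (chr11:83065032-83065090, plus strand): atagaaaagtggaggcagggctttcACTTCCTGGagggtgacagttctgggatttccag
Slfn3 (chr11:83191263-83191321, plus strand): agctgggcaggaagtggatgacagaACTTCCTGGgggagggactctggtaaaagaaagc
Slfn4 (chr11:83175088-83175146, plus strand): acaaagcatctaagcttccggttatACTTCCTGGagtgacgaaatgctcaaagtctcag

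The remaining motifs were the GAS (TTCNNNGAA), which no member held and 8.30% of all windows did, the AP-1 site (TGAGTCA or TGACTCA), found in *Slfn4* alone among the members and in 5.20% of all windows, and the forkhead site (TGTTTAC or GTAAACA), which no member held and 3.65% of all windows did. These are matches of letters and not measured binding.

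Each library held 18.54 M to 21.98 M fragments, as the smallest steps between its FPKM values show. The tested genes had a Pearson correlation between replicates of 0.976 in CNS and 0.986 in dLN. Each of 13 CD4 T-cell markers reached at least 42.6 FPKM in every library, and 7 of them were higher and 4 lower in CNS. *Cd4* was at 502 and 531 FPKM in the spinal cord against 82.0 and 66.7 in the nodes, whereas *Cd44*, on which the cells were sorted, was lower in the spinal cord, with a log2 ratio of -0.56. CNS replicate 2 stood apart in transcripts of other cells. The summed FPKM of 12 neutrophil markers was 3.15 in CNS replicate 1, 231 in CNS replicate 2 and at most 0.273 in dLN. That of 19 macrophage, microglia and monocyte markers was 196, 452 and at most 41.9. The tissues also split by sex-linked transcripts, with *Ddx3y* at 12.7 and 11.2 FPKM in CNS and listed at 0 in both dLN libraries. *Xist* was at 0 and 0.0026 FPKM in CNS and at 26.6 and 22.3 in dLN. By these transcripts the CNS RNA reads as male and the dLN RNA as female. Tissue, table and sex-linked transcripts therefore cannot be told apart, and in bulk RNA fewer cells of a type and less RNA per cell cannot be either.

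Tissue was tested with limma on log2(FPKM + 1) over the 10634 genes that averaged 1 FPKM or more in either tissue, and a log2 ratio is CNS over dLN on that scale. All 7 Schlafen genes were tested, 6 of them averaging 1 FPKM or more in both tissues. *Slfn4* passed through CNS only. With a Benjamini-Hochberg adjusted p under 0.05, 4 were higher in CNS, 1 was lower and 2 were not called. Of all genes tested 74.9% were called, with 37.8% higher and 37.2% lower, so 5 calls among 7 are near the background. Where a size of 1 or more was also asked of the log2 ratio, 3 members were higher and 1 lower, against 21.0% and 18.2% of all genes tested and 39.2% in either direction. A log2 ratio of 2 or more was seen in 3 members and in 7.31% of all genes tested. The members differed in direction and size. The tissues' libraries did not overlap in 5 members, against 89.4% of all genes tested. With 2 libraries a tissue, the lowest two-sided p of an exact permutation test is 0.333.

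**Figure D1:**
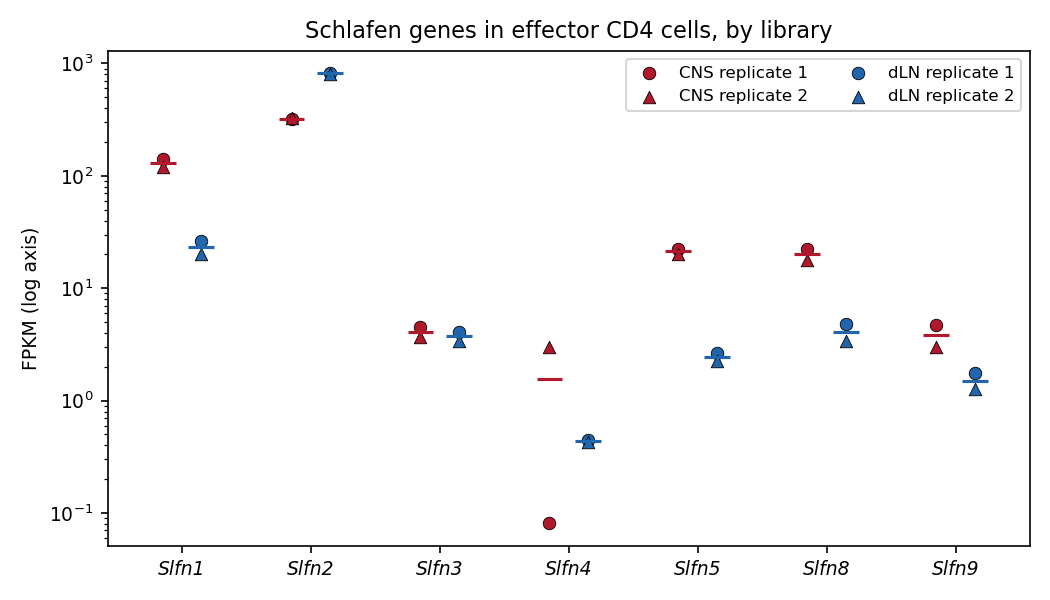
FPKM (log axis) of the 7 Schlafen genes in each of the 4 libraries, with circles for replicate 1, triangles for replicate 2, red for CNS, blue for dLN and a line at the mean of 2 libraries. *Slfn2* lies lower in CNS, *Slfn1*, *Slfn5*, *Slfn8* and *Slfn9* lie higher, and the CNS libraries are far apart only in *Slfn4*.

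*Slfn2*, which guards T-cell quiescence, was by far the most abundant member in both tissues and was the only one lower in CNS. The spinal cord libraries held 319 and 324 FPKM and the node libraries 817 and 809 FPKM. The replicates nearly coincided, within a factor of 1.02 in each tissue, and the tissues lay well apart. The means were 322 ± 3.53 (SD, n = 2) against 813 ± 5.82 (SD, n = 2) FPKM, a log2 ratio of -1.33 (SE, the standard error, 0.066; limma adjusted p = 0.000118). In dLN, *Slfn2* ranked 110 among all 23990 genes in each library, and in CNS it ranked 252 in each. The estimated number of fragments behind these values was 10079 to 26374 per library, so counting error was small. *Slfn2* (Entrez gene 20556, 83065112 to 83070678, plus strand) has a single transcript in the tables.

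*Slfn1*, the other short member, lies 46.17 kb from *Slfn2* on the same strand (Entrez gene 20555, 83116845 to 83122659) and moved the opposite way. It was at 142 and 119 FPKM in the spinal cord and 26.2 and 20.03 in the nodes. Both CNS libraries were above both dLN libraries. The means were 131 ± 16.2 (SD, n = 2) against 23.1 ± 4.38 (SD, n = 2) FPKM, and the log2 ratio was 2.45 (SE 0.16, limma adjusted p = 0.000234). Of the genes tested, 95.5% had a lower log2 ratio than *Slfn1* and 12.4% a lower one than *Slfn2*.

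The ratio of the short members within a library does not depend on how libraries were scaled. *Slfn2* exceeded *Slfn1* 2.25-fold and 2.72-fold in the CNS libraries and 31.1-fold and 40.4-fold in the dLN libraries. The tissues did not overlap in this ratio.

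The long members were all higher in CNS. *Slfn5*, whose human counterpart is described as a nuclear co-repressor, was at 22.5 and 20.2 FPKM in the spinal cord and 2.65 and 2.27 in the nodes. It had the largest log2 ratio of the family, 2.69 (SE 0.11, limma adjusted p = 9.15e-05), and 96.7% of the genes tested lay below it. Its means were 21.4 ± 1.62 (SD, n = 2) against 2.46 ± 0.267 (SD, n = 2) FPKM, an 8.68-fold difference on the FPKM scale. *Slfn5* (Entrez gene 327978, 82952102 to 82964850, plus strand) overlaps the antisense gene *Slfn5os*, which was listed at 0 in all 4 libraries. Whether the fragments were counted by strand is not given in the sources used here.

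*Slfn8*, which restrained T-cell growth when overexpressed in mice, followed the same direction. It was at 22.3 and 17.9 FPKM in the spinal cord and 4.83 and 3.36 in the nodes, again without overlap. The means were 20.1 ± 3.10 (SD, n = 2) against 4.09 ± 1.04 (SD, n = 2) FPKM, with a log2 ratio of 2.06 (SE 0.19, limma adjusted p = 0.000549). The longer of its 2 RefSeq transcripts, NM_181545 of 4011 bases, carried 81.5% and 87.9% of its FPKM in CNS and 71.5% and 85.2% in dLN. The tissues overlapped in this share. *Slfn8* (Entrez gene 276950) lies on the minus strand from 83002158 to 83020810.

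*Slfn9*, the neighbour of *Slfn8* on the same strand (Entrez gene 237886, 82980303 to 82991830), was lower and changed less. It was at 4.71 and 3.02 FPKM in the spinal cord and 1.75 and 1.26 in the nodes. The CNS libraries differed 1.56-fold, yet both lay above dLN. The means were 3.86 ± 1.19 (SD, n = 2) against 1.51 ± 0.346 (SD, n = 2) FPKM, with a log2 ratio of 0.94 (SE 0.22, limma adjusted p = 0.0129). The call was lost without CNS replicate 1 (log2 ratio 0.69, limma adjusted p = 0.0503) and without dLN replicate 2 (log2 ratio 0.80, limma adjusted p = 0.0698). These fits are smaller, and each takes the spread of the lone library from the other tissue.

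The intermediate members stood out less. *Slfn3* (Entrez gene 20557, 83191330 to 83215154, plus strand), known from the differentiation of gut epithelium, was at 4.54 and 3.66 FPKM in the spinal cord and 4.11 and 3.36 in the nodes. The libraries of the tissues interleaved. Its log2 ratio was 0.11, with a 95% confidence interval from -0.28 to 0.49 (limma adjusted p = 0.535), and turned to -0.051 with every library scaled to the same sum.

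*Slfn4* (Entrez gene 20558, 83175186 to 83190216, plus strand), the myeloid member, was carried by a single library. CNS replicate 1 held 0.0813 FPKM and CNS replicate 2 held 3.03 FPKM, against 0.443 and 0.431 FPKM in dLN. These values stand for about 6.3, 243 and, in dLN, 30.3 and 35.0 fragments. One CNS library thus lay below and the other above dLN. The log2 ratio was 0.54, with a 95% confidence interval from -1.10 to 2.18 (limma adjusted p = 0.466). Without CNS replicate 1 it was 1.49 (limma adjusted p = 0.00474) and without CNS replicate 2 it was -0.41 (limma adjusted p = 0.00905), so the direction turned on which CNS library was kept. In these fits the lone CNS library is assumed to vary as the dLN pair does, which the spread of the CNS libraries in *Slfn4* does not bear out, and the p-values carry little weight. The longer transcript, NM_011410, was at 1.40 FPKM in CNS replicate 2 and at most 0.000317 FPKM elsewhere.

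CNS replicate 2 was also the library with more RNA of other cells, as the sums above show. All 11 neutrophil markers above 0 in CNS were higher in replicate 2 than in replicate 1, as were 17 of 19 macrophage, microglia and monocyte markers, 10 of 11 dendritic-cell markers and 9 of 13 CD4 T-cell markers. *S100a8* reached 101 FPKM in CNS replicate 2, and every other library listed it at 0. Of the granule enzymes, picked after their values were seen, *Elane* was listed at 0 in every library and *Mpo* did not exceed 0.0229 FPKM. Others went the other way. *Mmp8* was at 0.0623 FPKM in CNS replicate 1 and 2.67 in CNS replicate 2, and *Mmp9* at 1.55 and 4.76. *Slfn1*, *Slfn3*, *Slfn5*, *Slfn8* and *Slfn9* were lower in CNS replicate 2 than in replicate 1, and *Slfn2* differed by a factor of 1.02. With CNS replicate 2 left out, 4 members were higher and 2 lower in CNS, the added one being *Slfn4*, at about 6.3 fragments in the lone CNS library, with the spread taken from dLN. In CNS replicate 1 the summed macrophage and neutrophil markers were above their dLN level too, whereas those of dendritic cells (42.7 FPKM) were below it (63.7 and 58.2 FPKM). *Cd74* was the largest part of the dendritic-cell sum, at 22.4 FPKM in CNS replicate 1 and 58.4 and 54.1 FPKM in dLN. *Itgax*, *H2-Aa*, *H2-Ab1* and *H2-Eb1* were higher in CNS replicate 1 than in both dLN libraries, and *Zbtb46* was lower. The part of other cells in the differences between tissues was not tested.

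**Figure D2:**
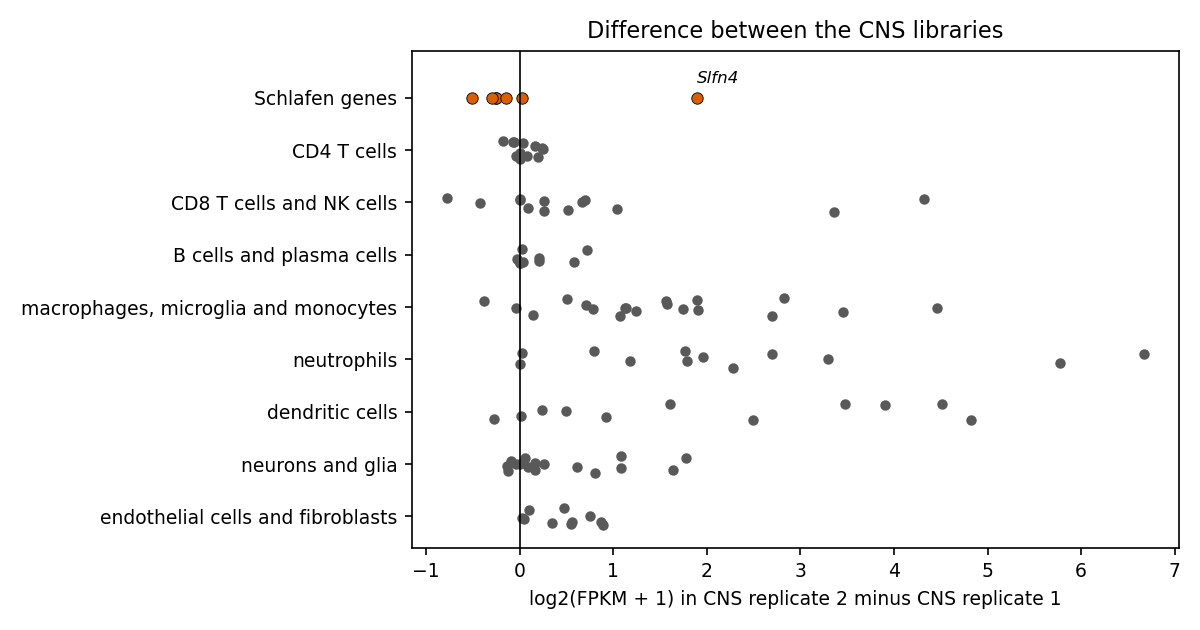
Difference in log2(FPKM + 1) between CNS replicate 2 and CNS replicate 1 (horizontal axis) for the 7 Schlafen genes (orange) and for the genes of 8 marker lists (grey), 1 point per gene. *Slfn4* lies far to the right of the other Schlafen genes, where many neutrophil, macrophage and dendritic-cell markers lie.

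Summed over the 7 members, Schlafen RNA was lower in CNS, at 516 and 491 FPKM against 857 and 839 FPKM in dLN. *Slfn2* made up 62.0% and 66.0% of that sum in CNS and 95.3% and 96.3% in dLN. The sum of the other 6 members was higher in CNS, at 196 and 167 FPKM against 40.0 and 30.7 FPKM. *Slfn1* took 27.5% and 24.2% of the family sum in CNS and 3.06% and 2.39% in dLN.

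**Figure D3:**
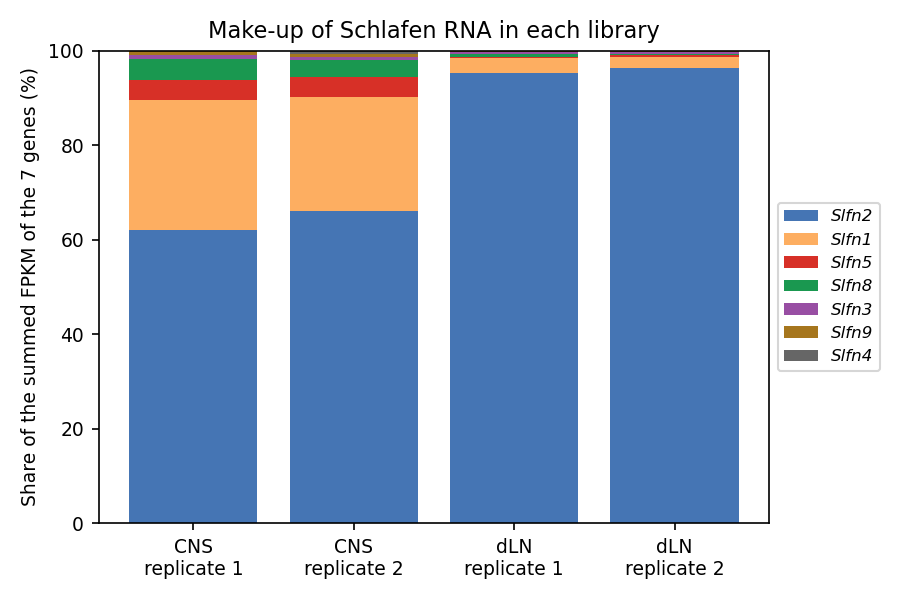
Share of the summed FPKM of the 7 Schlafen genes (per cent, vertical axis) taken by each gene in each library. *Slfn2* holds over 95% in both dLN libraries, and *Slfn1*, *Slfn5* and *Slfn8* fill much of the remainder in CNS.

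In CNS the order of mean levels was *Slfn2*, *Slfn1*, *Slfn5*, *Slfn8*, *Slfn3*, *Slfn9* and *Slfn4*. There the libraries of *Slfn5* and *Slfn8* overlapped, as did those of *Slfn3* and *Slfn9* and those of *Slfn9* and *Slfn4*. In dLN the order was *Slfn2*, *Slfn1*, *Slfn8*, *Slfn3*, *Slfn5*, *Slfn9* and *Slfn4*, in which only *Slfn8* and *Slfn3* overlapped. *Slfn5* therefore stood above *Slfn3* in every CNS library and below it in every dLN library.

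Among other entries of the family, a pseudogene was lower in CNS and the rest were at or near 0. The pseudogene *Slfn10-ps* (Entrez gene 237887, 83028126 to 83040533, minus strand) lies between *Slfn8* and *Slfn2*, 7.32 kb from the former. It was at 3.09 and 2.40 FPKM in the spinal cord and 17.5 and 16.8 in the nodes, a log2 ratio of -2.28 (SE 0.12, limma adjusted p = 0.000146). *Slfn8* thus exceeded *Slfn10-ps* 7.21-fold and 7.45-fold in CNS and lay below it in dLN, at 0.276 and 0.200 times its level. *Slfn14* was listed at 0 in 3 libraries and at 0.0153 FPKM, about 1 fragment, in dLN replicate 1. *Slfnl1*, on chromosome 4, was listed at 0 throughout.

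Members of the cluster share stretches of sequence, which could let the authors' counting split fragments between them. Of the stretches of 50 bases in the GENCODE M21 transcript of each gene, 15.4% of those of *Slfn8*, 11.9% of *Slfn9* and 19.7% of *Slfn10-ps* also occurred in another gene. The shares were 23.7% for *Slfn3*, 11.6% for *Slfn4* and 11.8% for *Slfn5*, the last mostly with *Slfn5os*. *Slfn2* shared 4.3% and *Slfn1* 0.6%. At 100 bases no member shared more than 6.9%. The *Slfn9* transcript searched has 5769 bases and the one behind its FPKM 3856, so its shares may not hold for the latter. The values of *Slfn3*, *Slfn4*, *Slfn5*, *Slfn8*, *Slfn9* and *Slfn10-ps* are therefore less certain than those of *Slfn1* and *Slfn2*.

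The rest of the region did not rise with *Slfn1*, *Slfn5*, *Slfn8* and *Slfn9*. Within 200 kb of the members, 11 genes outside the family were tested, of which 0 were called higher and 6 lower in CNS by limma. Over all genes tested, 37.8% were called higher and 37.2% lower. Of the 11 genes, 0 were higher at an unadjusted limma p under 0.05. *Nle1*, which encodes a factor of ribosome assembly and ends before *Slfn5*, had a log2 ratio of -3.03 (SE 0.19, limma adjusted p = 0.00021). *Ap2b1*, on the other side, which encodes an adaptor of clathrin coats, was at 40.0 and 36.7 FPKM in the spinal cord and 41.6 and 39.2 in the nodes (log2 ratio -0.075, limma adjusted p = 0.482).

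**Figure D4:**
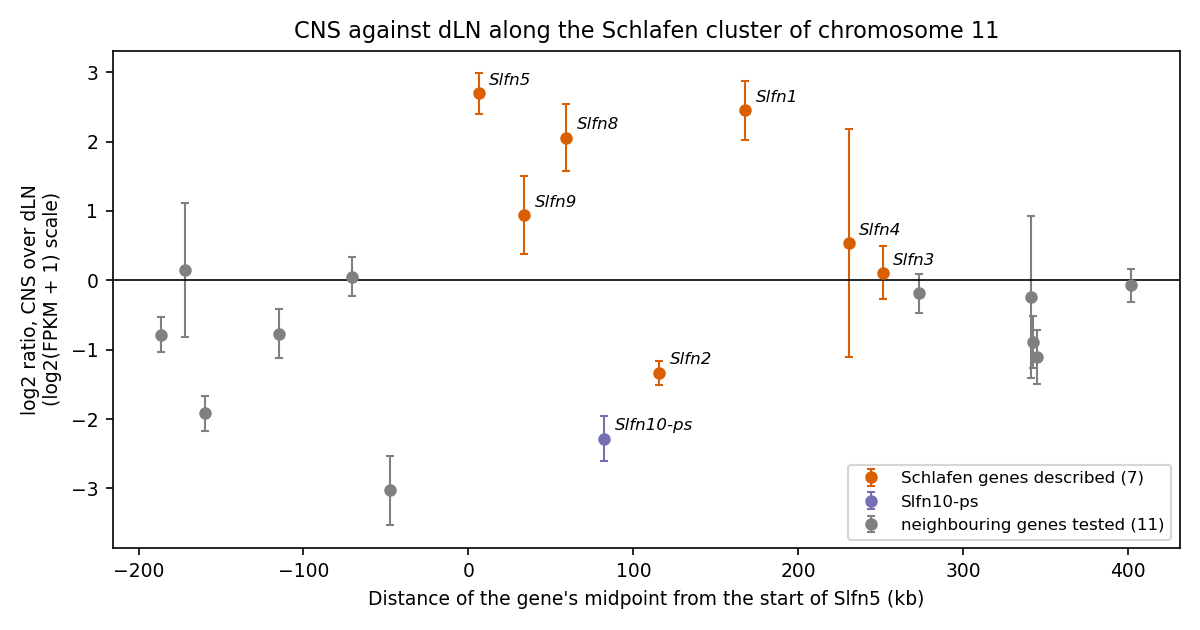
Log2 ratio of CNS over dLN on the log2(FPKM + 1) scale (vertical axis, bars are 95% confidence intervals of limma) against the distance of each gene's midpoint from the start of *Slfn5* in kb. *Slfn5*, *Slfn9*, *Slfn8* and *Slfn1* lie above 0, *Slfn10-ps* and *Slfn2* between them lie below, and 6 of 11 neighbouring genes are lower.

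Genes of the interferon pathway, which induces several Schlafen genes in other immune cells, were mostly higher in CNS. Of 37 tested genes of the type I interferon response, 36 were higher and 1 lower, with a median log2 ratio of 2.87 beside 0.045 over all genes tested. *Slfn5* (2.69), *Slfn1* (2.45) and *Slfn8* (2.06) lay below that median. *Ifit3*, an antiviral effector, was at 49.1 and 39.9 FPKM in the spinal cord and 0.194 and 0.188 in the nodes (log2 ratio 5.25). *Zbp1*, a sensor of nucleic acids, was at 173 and 179 FPKM in the spinal cord and 11.2 and 8.63 in the nodes (log2 ratio 4.03). The exception, named because it was the single one, was *Ifih1*, also a sensor, with a log2 ratio of -2.11.

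Of 28 interferon gamma response genes, 25 were higher and 2 lower, with a median log2 ratio of 1.497. Among 17 tested genes of interferon receptors and signalling, 11 were higher and 3 lower, with a median of 1.01. *Ifngr1*, a chain of the interferon gamma receptor, was at 497 and 471 FPKM in the spinal cord and 14.7 and 11.02 in the nodes (log2 ratio 5.14). *Jak2*, a kinase of the receptor, had a log2 ratio of -2.69.

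Most genes of T-cell quiescence were higher in CNS, unlike *Slfn2*. Of 26 tested, 18 were higher and 5 lower, and their median log2 ratio was 1.14. *Klf2*, a transcription factor of resting T cells, was at 179 and 216 FPKM in the spinal cord and 2.52 and 2.28 in the nodes (log2 ratio 5.86), and *Tsc22d3* and *S1pr1* had log2 ratios of 5.44 and 4.97. *Zfp36l1*, which promotes decay of messenger RNA, fell by 2.13 on the log2 scale.

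Genes of T-cell activation mostly moved in the direction of *Slfn2*. Of 25 tested, 6 were higher and 17 lower, and their median log2 ratio was -1.44. *Il2*, the T-cell growth factor, was at 18.2 and 38.8 FPKM in the spinal cord and 5363 and 6176 in the nodes (log2 ratio -7.70). *Myc* had a log2 ratio of -3.95 and *Egr2* one of -4.19. Without CNS replicate 2, 37 genes were called in the type I interferon list, 26 in the interferon gamma list, 14 in the signalling list and 23 in each of the quiescence and activation lists, against 37, 27, 14, 23 and 23 with it. The part of stimulation in the values of the Schlafen genes was not tested.

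Slfn2 acts on transfer RNA, and a list of 14 genes of transfer and ribosomal RNA cleavage was counted for that reason. Of these, 5 were higher and 6 lower, with a median log2 ratio of 0.09. *Nsun2*, which methylates transfer RNA, had a log2 ratio of -2.48, *Elac2*, which trims its end, one of -1.86 and *Rnh1*, the inhibitor of the nuclease angiogenin, one of 0.52.

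**Figure D5:**
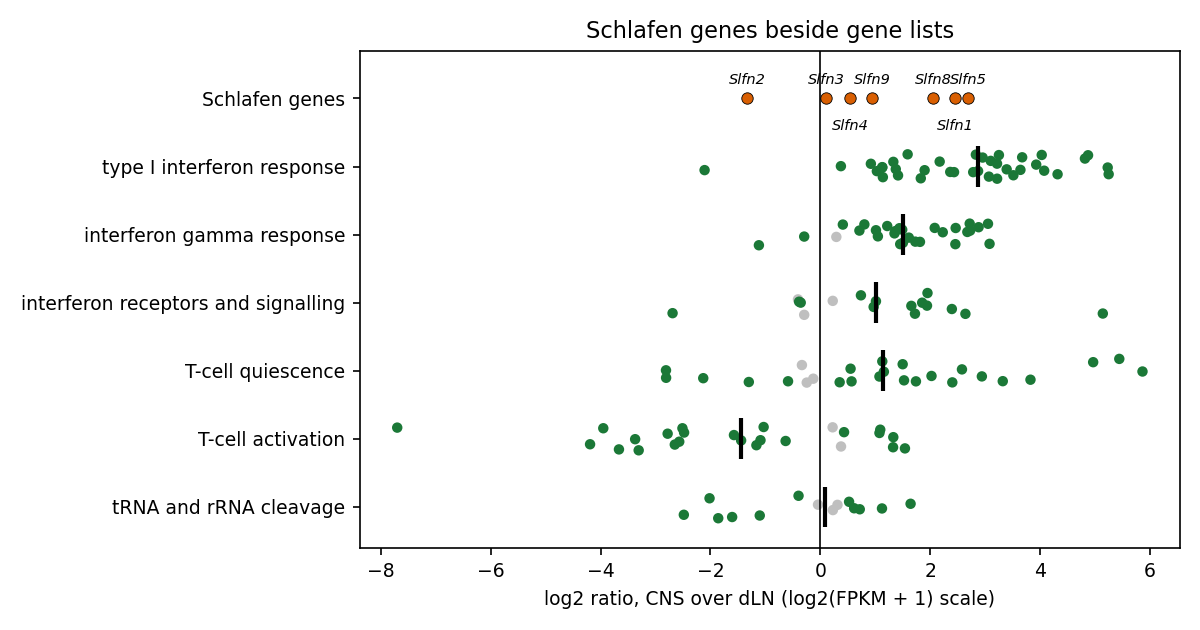
Log2 ratio of CNS over dLN (horizontal axis, log2(FPKM + 1) scale) for the 7 Schlafen genes (orange) and for 6 gene lists, 1 point per gene, green where the limma adjusted p was under 0.05 and grey otherwise, with a black bar at the median of a list. *Slfn5*, *Slfn1* and *Slfn8*, from 2.06 to 2.69, lie below the median of the type I interferon genes at 2.87, and *Slfn2* at -1.33 lies next to that of the activation genes at -1.44.

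The genes most like each member were found by the distance between centred log2(FPKM + 1) profiles over the 4 libraries. For *Slfn1* they were *Slc28a2*, *Tnfsf10* and *Trim12c*, at distances of 0.0621 to 0.0876 log2 units. *Slfn2* was closest to *Tm9sf4*, *BC048403* and *Isg20l2*, at 0.0101 to 0.0203. *Slfn5* was closest to *Gramd3*, *P2ry10* and *Cyp4f16*, and *Slfn8* to *Snx14*, *Senp7* and *Mitd1*, at 0.0532 to 0.0764. *Slfn3* was closest to *Lnp*, *Vps36* and *Pole2*, and *Slfn9* to *Cenpp*, *Fancl* and *Zfp120*. *Slfn4* had no profile as near. Its closest genes were *Ier3*, *Cfp* and *Scimp*, at 0.165 to 0.276. Each of these was highest in CNS replicate 2, which follows from their being picked for nearness to *Slfn4*.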

How the data were processed

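RNA of CD44+ CD4 cells was sequenced in 4 libraries, 2 per tissue. From trimmed and mapped reads the authors made the deposited FPKM values for 33819 RefSeq transcripts of mm10, in a table for each tissue. Aligner and FPKM program are not given in the sources used here. Both names of the CNS libraries stand in 1 header cell of the CNS table, and its value columns were taken in that order.

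FPKM was summed by symbol (23990 symbols). Another 565 transcripts carry no symbol and were dropped (0.142% to 0.446% of the FPKM of a library). Starts are given counted from 1, and strand came from GENCODE M21 on the same build. limma 3.58.1 (R 4.3.3, eBayes with trend, tissue as the only term) was run on log2(FPKM + 1) for genes averaging 1 FPKM or more in either tissue, with Benjamini-Hochberg adjustment over all 10634 at 0.05. Depth came from the fit of low FPKM values to whole fragments, with transcript lengths shortened by 150 to 190 bases. It placed 91.0% to 92.9% of low values within 0.05 of a whole fragment, where chance gives 10%. Both steps were tested on simulated data. With 2 libraries per tissue, p-values rest on the spread between those libraries, drawn by eBayes toward the spread of all genes tested. The labels do not tie the libraries to separate mice. Python 3.11.15, numpy 2.4.6, pandas 2.3.3 and matplotlib 3.10.9 did the rest.

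Members and gene lists were chosen with earlier results of these data known. Named beside the members were other Slfn symbols, genes within 200 kb, the 3 nearest profiles of each member, and from each list the 3 tested genes with the largest log2 ratios in size and the 3 highest in FPKM, of which a selection is shown. *Cd4*, *Cd44*, *Ddx3y*, *Xist*, *Ifih1*, *Elane*, *Mpo*, *Mmp8*, *Mmp9*, *Itgax*, *H2-Eb1* and *Zbtb46* were added after their values were seen. Lists of other cell types served as markers, and protein sequences were not used here. Of B-cell and plasma-cell markers 1 gene was tested and called higher. Of 7 CD8 T-cell and NK-cell markers tested 5 were higher, of 9 dendritic-cell markers 2 were higher and 1 lower, of 9 neutrophil markers 1 was higher, of 15 macrophage, microglia and monocyte markers 9 were higher, of 7 neuron and glia markers 4 were higher and 1 lower, of 5 endothelial and fibroblast markers 5 were higher, and of 13 CD4 T-cell markers 7 were higher and 4 lower. Alternatives covered the pseudocount, 3 scalings, the highest transcript, 3 filters, omitting libraries singly, a minimum log2 ratio, the replicate number as a block and eBayes with no trend.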

Additional observations from a re-analysis of the deposited data

How the results depend on the processing

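Of 107 alternatives for single Schlafen genes, 99 kept the direction and the side of the threshold. They include every alternative for *Slfn1* (log2 ratio 2.26 to 2.69), *Slfn2* (-1.53 to -1.10), *Slfn5* (2.53 to 3.07) and *Slfn8* (1.85 to 2.28). These are not 107 independent checks. Other filters, the replicate block and eBayes without trend leave the log2 ratio as it was and can move only its p-value. The highest transcript does the same for members with a single transcript. The limit on size reuses the main fit. The log2 ratio of *Slfn3* was -0.051 once all libraries were brought to one sum, and as each library was left out it ran from -0.019 to 0.23, below 0 without CNS replicate 1 (-0.019) and without dLN replicate 2 (-0.0083). That of *Slfn4* ran from -0.41 to 1.49 and that of *Slfn9* from 0.69 to 1.19 over the same omissions, and the number of members lower in CNS from 1 to 2. A further limit of 1 on the size of the log2 ratio took away *Slfn9* (0.94) and left 4168 of 7968 calls over all genes, 2230 higher and 1938 lower, and 7 of 11 in the list of RNA cleavage, because fewer genes pass a second criterion. *Slfn4* could not be tested with the stricter filters or with the highest transcript alone, and *Slfn3* and *Slfn9* not at 5 FPKM. Fits without a library leave a lone library that is assumed to vary as the other tissue does. Rescaling to the same sum moved the median log2 ratio of all genes by -0.17 and the share of calls that were higher from 50.4% to 43.1%, and to the same upper quartile by 0.20 and to 59.5%. The replicate numbers were not taken as pairs. Across genes, the replicate differences of the tissues had a correlation of 0.0933, which alone cannot show whether the libraries were paired. *Xist* and *Ddx3y* split by tissue, as they would not in RNA of the same mice. With the replicate block 4 Schlafen genes were higher and 1 lower, with the log2 ratio of *Slfn9* at 0.94, and 7828 genes were called. Counts in marker lists moved by over 1.5 times in 22 of 128 alternatives. Under about 10 fragments, as for *Slfn4* in CNS replicate 1, depth limits what can be said.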
